A study of Mus musculus with 4 samples.

Results

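CpG islands within 3 Mb of the distal end of each mouse autosome were described in the brain of newborn mice after maternal exposure to titanium dioxide nanoparticles. The members were all autosomal array probes whose start lay within 3000000 bp of the end of the last probe of the same chromosome, on the mm9 build, and the choice used position only. They numbered 3281 of 85850 autosomal probes (3.82%). Runs of probes with gaps of at most 1000 bp were treated as 1 region, which gave 536 distal regions of 14178 on the 19 autosomes, and no region had probes on both sides of the limit. Of the 3281 probes, 3108 (94.7%) had an input signal well above background on all 4 arrays and were measured, and 483 of the 536 regions held at least 3 such probes. A further 53 regions held fewer and were not measured.

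Whole brains of C57BL/6J offspring were collected on postnatal day 1. The dams had received 25 uL of vehicle (Sham) or of a titanium dioxide nanoparticle suspension (TiO2-H, 100 ug per mouse) intratracheally, on gestational day 14 according to the sample names and on day 10.5 according to the treatment protocol. DNA was pooled into 1 sample per sex and exposure, from 2 offspring of each of 5 Sham dams or 6 TiO2-H dams, so each of the 4 groups, Sham and TiO2-H of either sex, had 1 array and no replicate. Methylated DNA was enriched by immunoprecipitation with an antibody against 5-methylcytosine (MeDIP) and labelled with Cy5, the input DNA was labelled with Cy3, and the value given throughout is the log2 ratio of the processed Cy5 to the processed Cy3 signal, from which the array's autosomal median was subtracted. The Sham male and TiO2-H male arrays lay on 1 slide and the female pair on the other, and both Sham arrays lay in position 1, so sex label and slide, and exposure and position, cannot be told apart.

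Mouse chromosomes carry the centromere at 1 end, and the distal end is the opposite one, next to the telomere of the long arm. CpG islands are short stretches rich in CpG dinucleotides that cover many promoters. Islands at active promoters are mostly free of methylation, while islands inside genes, at germline-specific promoters and at imprinted control regions can be methylated in somatic tissue. The distal ends hold several well-studied loci, among them the Igf2 and Kcnq1ot1 imprinted domain on chromosome 7, the FGF ligand genes beside it and the Hoxc cluster on chromosome 15. MeDIP enrichment also depends on CpG density, and fragments of sonicated DNA are longer than the 45-base probes, so adjacent probes share fragments.

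Sequences are shown for 3 promoters, of a high and a low region of 1 imprinted domain and of the highest region with a gene symbol, from RefSeq on the GRCm38.p6 build, 250 bases before to 50 after the transcript start, with CpG in capitals. Probe positions are on mm9, so which probes fall in these windows was not determined. Kcnq1ot1, at chr7:143296498-143296797 on the minus strand, is the promoter of the long non-coding RNA of the imprinted domain. Tssc4, at chr7:143069118-143069417 on the plus strand, is a neighbour in the same domain with a low ratio. Topaz1, at chr9:122746949-122747248 on the plus strand, belongs to a gene of germ cells and its region had the highest ratio among regions with a gene symbol.
Kcnq1ot1: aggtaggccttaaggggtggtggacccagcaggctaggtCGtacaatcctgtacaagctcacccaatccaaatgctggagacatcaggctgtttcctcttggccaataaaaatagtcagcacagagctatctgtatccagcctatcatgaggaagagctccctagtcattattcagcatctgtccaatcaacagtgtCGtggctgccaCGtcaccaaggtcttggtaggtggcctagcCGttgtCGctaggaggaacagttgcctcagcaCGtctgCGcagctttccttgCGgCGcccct
Tssc4: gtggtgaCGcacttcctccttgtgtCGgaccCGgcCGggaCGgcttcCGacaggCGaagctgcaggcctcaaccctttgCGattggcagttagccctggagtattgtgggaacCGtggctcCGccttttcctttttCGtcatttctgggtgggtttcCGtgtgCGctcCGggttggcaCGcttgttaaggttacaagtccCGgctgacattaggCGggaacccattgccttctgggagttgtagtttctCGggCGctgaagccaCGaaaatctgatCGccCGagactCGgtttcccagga
Topaz1: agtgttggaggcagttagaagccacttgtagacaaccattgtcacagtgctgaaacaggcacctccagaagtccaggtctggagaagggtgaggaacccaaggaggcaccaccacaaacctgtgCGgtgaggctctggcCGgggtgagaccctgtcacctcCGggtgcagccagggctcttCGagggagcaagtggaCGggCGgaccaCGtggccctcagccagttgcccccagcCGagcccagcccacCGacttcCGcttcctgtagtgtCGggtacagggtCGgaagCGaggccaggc
The letters CG occurred 9 times in the Kcnq1ot1 window, 23 times in the Tssc4 window and 13 times in the Topaz1 window. As many or more occurred in 46.2%, 22.1% and 38.5% of 31396 autosomal promoters of that length. The observed over expected CpG ratio was 0.42, 0.90 and 0.44 in the same order. The Kcnq1ot1 and Topaz1 windows held their CpGs mostly towards the transcript start, while those of Tssc4 were spread through the window. Among 1088 promoters within 3 Mb of the last promoter of each autosome on that build, the median GC content was 55.0% and 48.3% held at least 10 CpGs, against 53.0% and 43.8% of the other 30308.

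A miRNA gene was also among the named regions. Mir615 lies within the Hoxc cluster, and its mature RNAs are shown with the seed (bases 2 to 8) in capitals, because its region had the largest mean fall among those that fell in both exposure comparisons.
mmu-miR-615-5p: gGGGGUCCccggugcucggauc
mmu-miR-615-3p: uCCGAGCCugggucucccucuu
The hairpin arms are encoded at chr15:103014926-103014947 and chr15:103014969-103014990 on the plus strand of GRCm38.p6, and their seeds differ.

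Across the 4 arrays, the share of autosomal probes with a Cy5 signal well above background was 51.2% for Sham male and 58.8% for Sham female, and 24.6% for TiO2-H male and 32.9% for TiO2-H female, and Cy5 after background subtraction had a median of 5.26, 6.48, 2.02 and 2.6 in the same order. The MeDIP channel was thus dimmer on both TiO2-H arrays, while the median local Cy5 background was 14.5 to 15.0 on all 4. The input signal of chromosome X probes relative to autosomal probes was -0.75 on the log2 scale for Sham male and 0.035 for Sham female, but 0.027 for the array with the TiO2-H male label and -0.74 for the one with the TiO2-H female label. The input therefore went against the sex label on both TiO2-H arrays, and the comparisons within a labelled sex are given with the labels crossed too. The median absolute deviation of autosomal ratios was 1.07, 0.59, 0.85 and 1.02 in the same order, so the Sham female array had the narrowest ratios.

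Distal CpG islands had ratios close to those of the other autosomal islands on every array. The median ratio of the 3108 distal probes was -0.153 on the Sham male array, -0.069 on Sham female, -0.136 on TiO2-H male and -0.145 on TiO2-H female. The other 77370 probes had medians of -0.121, -0.031, -0.105 and -0.112. The distal median was thus lower on 4 of 4 arrays, by a mean difference of -0.034 ± 0.003 (SD over 4 arrays, range -0.038 to -0.031), which was small beside the interquartile span of distal probes (from -1.11 to 1.01 on the Sham male array). The exact two-sided sign-flip permutation test over the 4 arrays gave p = 0.13, the smallest p that 4 arrays allow. With normexp background correction the difference was -0.002 ± 0.002, and with regions in place of probes it was -0.002 ± 0.031. Against the 2319 probes within 3 Mb of the first probe of each chromosome, the distal medians were lower by -0.038 ± 0.025 (exact p = 0.13).

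**Figure D1:**
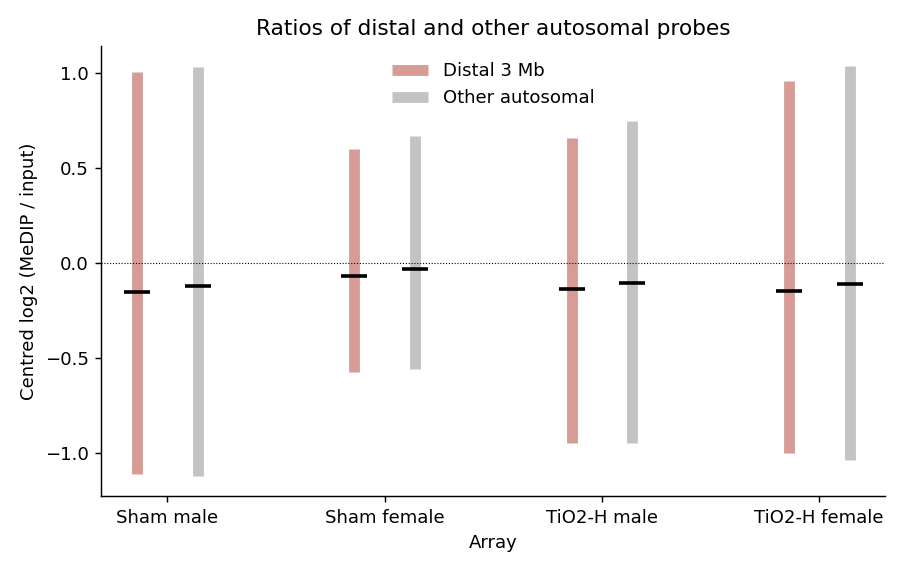
Centred log2 ratio of MeDIP over input on the 4 arrays for probes of the distal 3 Mb (red) and all other autosomal probes (grey). Bars span the 25th to 75th percentile over probes and black dashes mark the medians, which lie within 0.04 of each other on each array.

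Distal probes were somewhat fewer among the most enriched probes. The highest 10.0% of autosomal probes of an array held 9.04% of distal probes on Sham male (95% Wilson interval 8.08 to 10.1), 7.92% on Sham female (7.02 to 8.92), 8.08% on TiO2-H male (7.17 to 9.09) and 8.82% on TiO2-H female (7.87 to 9.86). These intervals cover counting over probes only, and probes of 1 region are not independent. The share differed from that of the other probes by -1.59 ± 0.61 percentage points (SD, 4 arrays, exact p = 0.13). The MeDIP channel moved with it: Cy5 was well above background on 54.1%, 61.4%, 24.4% and 33.6% of distal probes against 54.6%, 62.8%, 26.4% and 35.2% of the others. Its part in the difference was not tested. Median Cy3 intensity was also slightly lower at distal probes, 910 against 929 on the Sham male array and 748 against 762 on the TiO2-H female array.

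Within the 3 Mb, the ratio changed with distance from the chromosome end. The 1062 probes of the last 1 Mb (191 regions) had medians of -0.32 on Sham male, -0.13 on Sham female, -0.30 on TiO2-H male and -0.29 on TiO2-H female. The 1080 probes from 1 to 2 Mb had a mean of medians of -0.16, and the 966 probes from 2 to 3 Mb had medians of 0.052, 0.046, 0.021 and 0.04. The last 1 Mb was thus lower than the 2 to 3 Mb interval on 4 of 4 arrays, by -0.30 ± 0.08 (SD, range -0.37 to -0.18), and the bins of the last 1 Mb lay below those of 2 to 3 Mb on each array. The highest 10.0% of autosomal probes included 7.25%, 5.84%, 6.78% and 7.16% of probes of the last 1 Mb. Across the limit itself the medians were 0.09, 0.086, 0.062 and -0.021 just inside (2.5 to 3 Mb, 395 probes) and -0.048, -0.093, -0.179 and 0.002 just outside (3 to 3.5 Mb, 358 probes), in the same order of arrays.

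**Figure D2:**
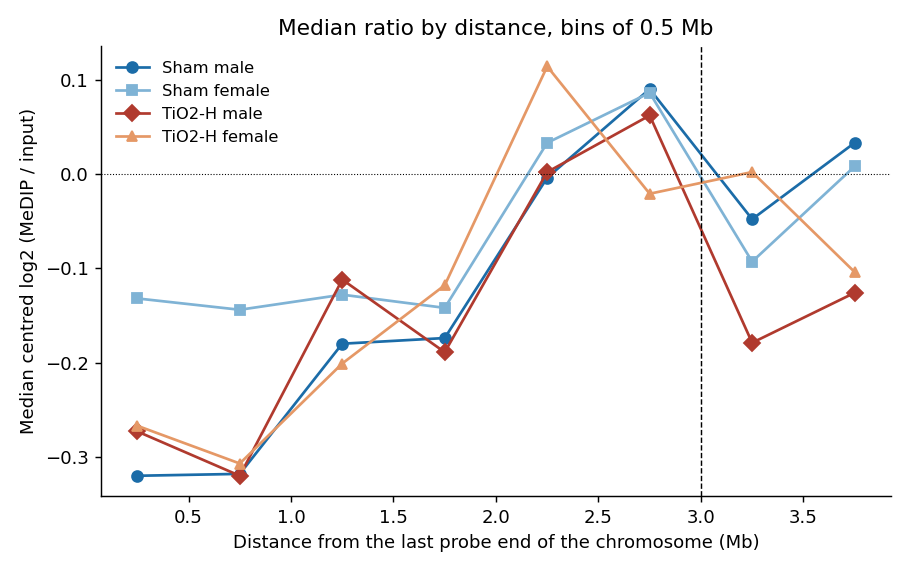
Median centred log2 ratio of MeDIP over input on the 4 arrays, in bins of 0.5 Mb by distance from the last probe end of the chromosome, for all autosomes together. The dashed line marks the 3 Mb limit. All 4 arrays lie below -0.1 in the last 1 Mb and Sham female, with the narrowest ratios, changes least.

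The distance trend was small among probes with a bright Cy5. Cy5 is the numerator of the ratio, so that filter also selects on the ratio and cannot show whether the trend depends on brightness. The share of probes with Cy5 well above background, averaged over the 4 arrays, rose from 40.2% in the last 1 Mb to 43.7% at 1 to 2 Mb and 46.5% at 2 to 3 Mb, while median log2 Cy3 was 9.72, 9.64 and 9.68. Among probes with Cy5 well above background on all 4 arrays the difference between the last 1 Mb and 2 to 3 Mb was -0.014 ± 0.085, and with normexp background correction it was -0.035 ± 0.024. It remained -0.32 when regions were the units and -0.32 within 4 classes of Cy3 intensity, and lay between -0.34 and -0.24 without each chromosome in turn. Of 9 chromosomes with at least 20 probes in both intervals, 8 had a lower mean in the last 1 Mb and 7 were lower on all 4 arrays. Chromosomes 5, 12 and 15 showed -0.70, -0.65 and -0.64, and chromosome 6 went the other way on all 4 arrays (0.32).

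The distal ends of single chromosomes differed from each other by more than the pooled difference. Each was set against the other probes of its own chromosome. Chromosome 13 stood highest, with differences of 0.34 on Sham male, 0.10 on Sham female, 0.57 on TiO2-H male and 0.54 on TiO2-H female, from 43 probes in 9 regions. The distal ends of chromosomes 8, 9 and 12 were also above 0 on 4 of 4 arrays, by means of 0.10, 0.14 and 0.16. Those of chromosomes 10, 15, 16 and 19 were below 0 on 4 of 4 arrays. Chromosome 15, whose distal end includes the Hoxc cluster, gave the most even values, -0.18, -0.20, -0.21 and -0.25 (367 probes), and chromosome 16 gave -0.28, -0.09, -0.30 and -0.25 (84 probes). On the other 11 chromosomes the sign differed between arrays, and chromosome 17 had only 11 distal probes with differences from -0.59 to 0.41. Chromosomes contributed unequally, with 497 of the 3108 measured distal probes on chromosome 11, 367 on chromosome 15 and 353 on chromosome 4.

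**Figure D3:**
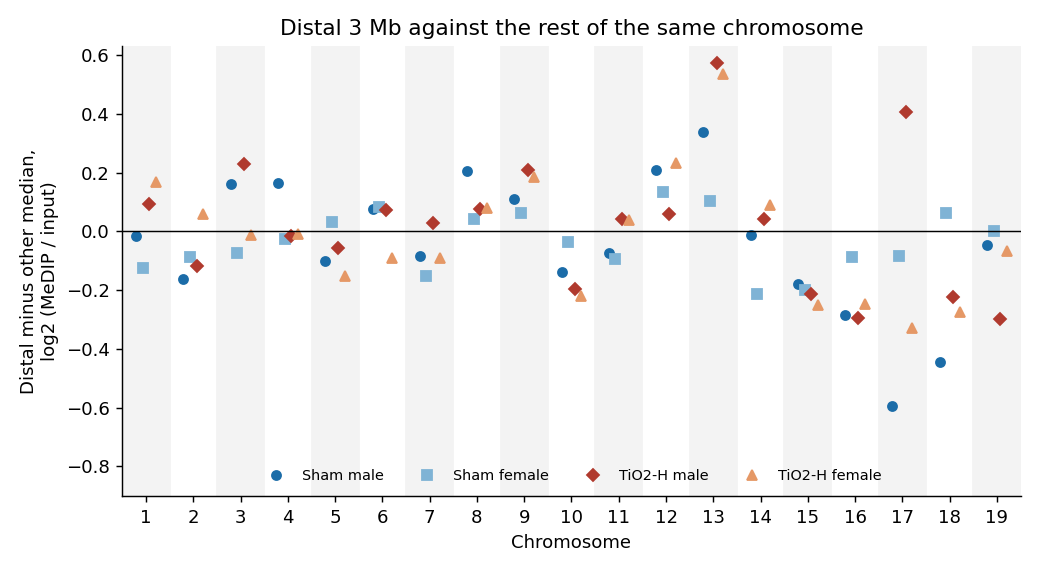
Median centred log2 ratio of the distal 3 Mb minus that of the other probes of the same chromosome, for the 19 autosomes and 4 arrays (1 point per array). Points of chromosomes 8, 9, 12 and 13 lie above 0 and those of 10, 15, 16 and 19 at or below 0 on every array.

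Single regions spanned most of the range of the arrays and kept their order between them in part. The Spearman correlation of the 483 region medians between arrays ran from 0.57 (Sham female and TiO2-H male) to 0.83 (Sham male and TiO2-H female). At the other autosomal regions it ran from 0.55 to 0.86 for the same pairs. These describe points that share probes, array depth and base composition. The median of the region means was -0.147 at distal and -0.144 at other regions. Of the 483 distal regions, 21 (4.35%) were in the top 10% of regions on all 4 arrays, against 5.16% of all autosomal regions, and 7 (1.45%) were in the bottom 10% on all 4, against 0.901%. A mean above 1 was reached by 39 distal regions (8.07%) against 10.2% of the other regions. Chromosome 9 contributed 8 of the 39 from its 37 measured regions, and chromosome 11 contributed 1 from 71. The 8 included, beside 2 regions of the named set described next, regions inside Snrk, a kinase gene (1.35, 1.27, 1.39 and 1.91, again Sham before TiO2-H and male before female), inside Hhatl (1.03, 1.31, 1.57 and 1.66) and inside Trak1, a gene of mitochondrial transport in neurons (0.82, 1.26, 0.88 and 1.23). These 3 were picked after their values were seen.

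The most enriched distal region lay at chr4:153715735-153715986 and had no gene symbol in the tables used. Its medians were 4.25 on Sham male, 2.90 on Sham female, 2.24 on TiO2-H male and 3.35 on TiO2-H female, from 3 probes with Cy5 well above background on every array. At chr2:180763528-180763869 the values were 3.33, 2.45, 2.00 and 3.18 in the same order. Both were high on every array, with Sham male highest and TiO2-H male lowest. With loess scaling they ranked at the 83.1st and 93.5th percentile of measured regions, and with normexp correction at the 99.5th and 86.8th. Median Cy3 at the chromosome 4 region was 2948 to 4321 over the arrays, against 756 to 929 at the other autosomal probes.

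Topaz1, a gene needed for male germ cell development whose promoter is printed above, was the highest region with a symbol. Its region at chr9:122656143-122656538, over the promoter and the gene start, had values of 1.70, 1.84, 1.99 and 2.44. It ranked at the 99.0th percentile of all 12659 measured regions, and between the 95.2nd and the 100.0th under the other background and scaling settings. The 2 Sham arrays were lower than the 2 TiO2-H arrays, and the widths of their ratio distributions differ as given above.

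Other enriched distal regions lay inside genes. Grasp, which encodes a scaffold protein of metabotropic glutamate receptors, had 2.34, 1.50, 1.55 and 1.86 at chr15:101061950-101062514. Rapgef5, a guanine nucleotide exchange factor for Rap proteins, had 1.92, 1.37, 1.36 and 2.24 at chr12:118772206-118772926. Ajap1, an adherens junction protein gene, had 1.40, 1.49, 1.82 and 2.16 at chr4:152806765-152807036, and the zinc finger gene Zfp651 had 1.36, 1.41, 1.83 and 2.01 at chr9:121671713-121672279. All 4 ranked at the 97.3rd percentile or higher as measured, but with normexp correction Grasp fell to the 72.8th and Ajap1 to the 49.8th, while Zfp651 stayed at the 90.7th.

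Of the remaining regions among the 10 highest, 3 had no symbol. The one at chr6:146582793-146583232 had 2.12, 1.55, 1.20 and 2.62, the one at chr1:194680981-194681478 had 2.07, 1.16, 1.31 and 1.95, and the one at chr15:103144458-103144755 had 2.5, 1.49, 0.96 and 1.39. The last 2 ranked at the 44.6th and 28.3rd percentile with normexp correction, so their place depended on how background was removed.

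The lowest distal regions were mostly dim. At chr15:102162040-102162559 the medians were -2.05 on Sham male, -0.44 on Sham female, -2.04 on TiO2-H male and -2.14 on TiO2-H female, and Cy5 was well above background at 2, 3, 0 and 1 of its 4 measured probes. It ranked at the 0.229th percentile, and at the 0.964th or lower under the other background and scaling settings. The regions at chr11:120852280-120852828 (-1.39, -0.82, -2.10 and -1.98) and chr11:120574464-120575407 (-2.17, -0.27, -1.77 and -1.77) followed. In each of these 3, at most 1 probe had Cy5 well above background on either TiO2-H array. At chr10:128258538-128259239 the values were -2.51, -0.26, -1.05 and -2.03. The last region of the chromosome 2 array design, chr2:181598855-181599525, had -2.18, -0.47, -1.44 and -1.55, and its neighbour at chr2:181572528-181572795 had -2.03, -0.59, -1.27 and -1.65. Sham female, the array with the narrowest ratios, was highest in each of these 6 regions. The lowest region with a symbol, picked after its values were seen, lay inside Itga7, the gene of a laminin-binding integrin subunit, with -1.59, -0.62, -1.31 and -2.00.

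The imprinted domain of distal chromosome 7 is where methylation is known to differ between the parental alleles. Of 18 genes listed for it, 5 had a distal region with a symbol, and all 5 regions were measured. Kcnq1ot1, whose promoter carries the maternal imprint of the domain, had 0.98 on Sham male, 0.90 on Sham female, 0.81 on TiO2-H male and 0.88 on TiO2-H female at chr7:150481208-150482535 (8 probes). Its 4 values lay within 0.18 of each other, the narrowest spread among the 5 regions. It ranked at the 88.4th percentile, but at the 33.0th with normexp correction.

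Cdkn1c, a maternally expressed inhibitor of the cell cycle, had 1.37, 1.10, 1.50 and 1.73 at chr7:150644899-150647431 (14 probes). It ranked at the 95.1st percentile, and from the 84.0th to the 96.6th under the other settings. A neighbouring region without a symbol, at chr7:150623649-150624287, had 2.04, 1.13, 1.16 and 1.75. Both stood in the top 10% of regions on all 4 arrays.

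The other 3 regions of the domain had mean ratios below 0, and Igf2 was above 0 on 1 array. Igf2, a paternally expressed growth factor gene, had -0.20, -0.15, 0.24 and -0.24 at chr7:149844923-149847273 (18 probes). Ascl2, a transcription factor gene of the placenta, had -0.52, -0.25, -0.18 and -0.18 at chr7:150153302-150155481. Tssc4 had -1.29, -0.46, -1.28 and -0.83 at chr7:150254989-150255934, at the 6.88th percentile as measured and the 42.9th with normexp correction. From Ascl2, 2.237 Mb from the last probe end, to Cdkn1c, 1.745 Mb from it, the domain held both high and low regions on every array as measured. With normexp correction the mean was -0.17 at Kcnq1ot1 and -0.096 at Tssc4, so the order of this pair reversed. Cdkn1c had 0.20 with that correction.

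**Figure D4:**
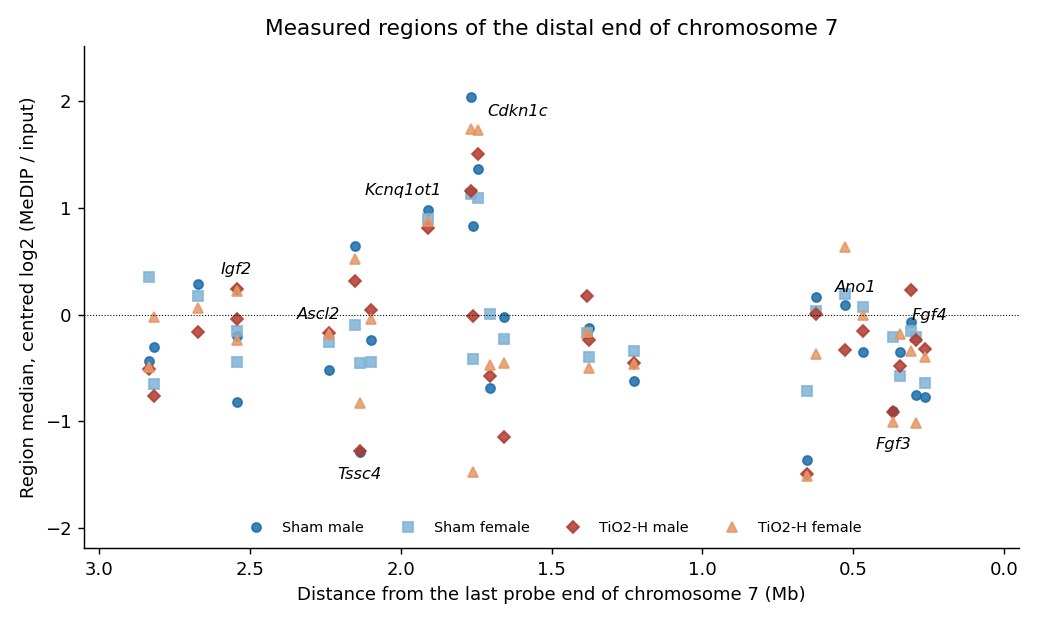
Median centred log2 ratio of MeDIP over input of the measured regions of distal chromosome 7 on each of the 4 arrays, by distance from the last probe end of the chromosome. Kcnq1ot1 and Cdkn1c lie above 0.8 on every array and Tssc4 and Fgf3 below 0.

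Regions of FGF and Hoxc genes near the ends had ratios below 0. The median over all measured regions was itself -0.144, and 34.5% of all were below 0 on all 4 arrays. Fgf3 and Fgf4, ligands of FGF receptors in the embryo, were the 2 of 5 listed FGF genes with a distal region. Fgf3 had -0.90, -0.21, -0.91 and -1.01 and Fgf4 had -0.35, -0.57, -0.48 and -0.19. Both regions were below 0 on all 4 arrays, at the 13.7th and 33.4th percentile, and at the 54.3rd and 9.82nd with normexp correction. Of 9 Hoxc genes, which pattern the body axis, only Hoxc12 had a symbol on a distal region, and its 2 regions had -0.60, -0.74, -0.23 and -0.66 at the promoter and -0.92, -0.17, -0.46 and -0.27 downstream.

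Among 24 listed transcription factors and regulators, 7 had distal regions, 9 in all, with a median of means of -0.32 against -0.144 over all measured regions. The transcriptional corepressor gene Irf2bp2 stood apart as measured, with 2 high regions on chromosome 8. The larger one, at chr8:129116306-129118929 (19 probes), had 1.13, 0.50, 0.45 and 1.18, and the other had 0.33, 1.13, 0.23 and 1.38. The larger one ranked at the 87.1st percentile, but at the 47.1st with normexp correction. The other held 3 probes, with Cy5 well above background at 2, 3, 1 and 2 of them. Zic2, a factor of forebrain development, was near 0 with 0.16, 0.039, -0.29 and 0.20. Sp4, a zinc finger factor of neurons, differed most between arrays of this list, with -0.46, 0.41, -0.023 and -0.77. Foxk2, a forkhead factor, had -0.59, -0.61, -0.82 and -0.53. Nanos1, an RNA-binding regulator, had -0.39, -0.18, -0.35 and -0.38. Both of these were below 0 on all 4 arrays. The proto-oncogene Ski had -1.41, -0.30, -0.75 and -0.96 downstream and -0.65, -0.52, -0.69 and -0.16 at its promoter.

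Of 33 listed channel, receptor and synaptic genes, 7 had a distal region and 6 regions were measured, with a median of means of -0.22. The region of Dscam, a cell adhesion gene, held 2 measured probes and was left out. Eef1a2, a neuronal translation elongation factor gene, had -1.26 on Sham male against 1.08, 0.58 and 0.43 on the other arrays, so its mean rests on arrays that disagree. Slc18a2, the vesicular monoamine transporter gene, was even across arrays at -0.37, -0.43, -0.27 and -0.25. Plxna2, a semaphorin receptor gene, had -1.24, -0.87, -0.54 and -0.73, and was thus below 0 on all 4 arrays as well. Gnb1, a G protein subunit gene, had -0.81, 0.066, -0.65 and -0.64. The chloride channel gene Ano1 had -0.36, 0.075, -0.15 and -0.003, and the cell adhesion gene Negr1 had -0.22, -0.11, 0.15 and 0.064, both close to the array medians. The region of Mir124a-3, a miRNA gene of neurons on chromosome 2, was picked after its values were seen and had -0.46, -0.42, -0.84 and -1.21 over 13 probes.

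The question behind the design was how maternal exposure changed DNA methylation in the offspring brain. For each labelled sex, the TiO2-H array was set over the Sham array, and a probe was measured where Cy3 was well above background on all 4 arrays, Cy5 on at least 1 of the pair, and the scanner's spot p-value was under 0.05 on at least 1. The methods' thresholds of 1.5-fold and 0.67-fold were used. With 1 array a group there is no test of the exposure for a single sex, and the counts compare these arrays.

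In the male comparison 767 of 1344 measured distal probes (57.1%, 95% Wilson interval 54.4 to 59.7) were at or below 0.67-fold, where 56.0% of all measured autosomal probes were. At or above 1.5-fold were 32 distal probes (2.38%), where 3.14% of all were. The difference from the other probes in the share that fell was 1.09 percentage points (Newcombe 95% interval -1.62 to 3.77). In the female comparison 583 of 1529 distal probes (38.1%, 35.7 to 40.6) were at or below 0.67-fold against 36.3% of all, and 454 (29.7%) were at or above 1.5-fold against 28.8%. The difference in falls was 1.85 points (-0.59 to 4.36). In each comparison the share of falls among measured distal probes thus differed from that of the other measured probes by less than the counting error. A probe could be measured through 1 array alone, and Cy5 was well above background more often on the Sham arrays. The falls are therefore no measure of a shift of all distal probes. Over all 3108 distal probes the medians were -0.153 on Sham male and -0.136 on TiO2-H male, and -0.069 on Sham female and -0.145 on TiO2-H female.

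**Figure D5:**
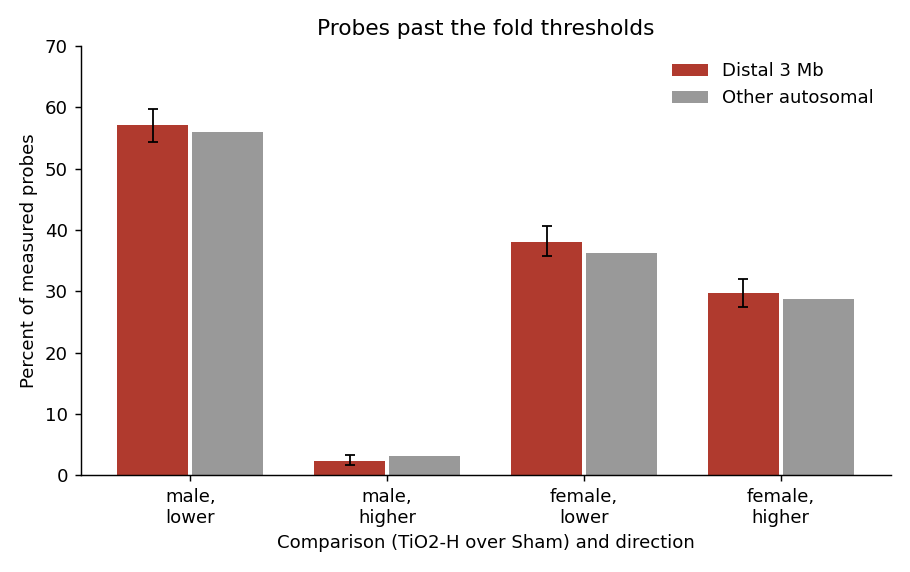
Percent of measured probes at or below 0.67-fold (lower) or at or above 1.5-fold (higher) in the male and female comparisons of TiO2-H over Sham, for the distal 3 Mb (red) and the other autosomal probes (grey). Error bars are 95% Wilson intervals of the distal shares and cover counting over probes only, and each grey bar ends within the error bar of its neighbour.

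The falls rested in large part on dim signal. Cy5 on the TiO2-H array was not well above background at 368 of the 767 male falls (48.0%, against 45.2% of all autosomal falls) and at 538 of the 583 female falls (92.3%, against 89.7%). Among measured distal probes the median log2 fold was -0.68 in the male comparison (all measured probes -0.68) and -0.14 in the female comparison (all measured probes -0.10). Between the 2 Sham arrays, which differ in sex label and slide but not in exposure, 35.6% of measured distal probes were at or below 0.67-fold against 33.0% of all, and 29.4% were at or above 1.5-fold against 32.0% of all. Between the TiO2-H arrays, female over male by label, 65.5% of distal probes were at or above 1.5-fold against 63.7% of all, and 0.911% at or below 0.67-fold against 1.02%. The 2 TiO2-H arrays thus differed in most measured probes, in 1 direction.

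When the TiO2-H arrays were exchanged between the sexes, the shares changed for distal and other probes alike. Against Sham male, the falls dropped from 57.1% to 23.0% of distal probes (22.1% of all) and 10.4% rose (10.3% of all). Against Sham female, 46.8% fell (46.2% of all) and the rises dropped from 29.7% to 2.67% (3.36% of all). The counts therefore depend on which TiO2-H array is set against which Sham array. The distal excess of falls was 1.03 points against Sham male and 0.54 points against Sham female.

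Within the 3 Mb the female comparison differed by distance. Falls made up 43.7% of 517 probes in the last 1 Mb, 33.3% of 541 at 1 to 2 Mb and 37.6% of 471 at 2 to 3 Mb. The excess over the other probes was 7.46 points with a 1 Mb limit, and no such excess was seen in the male comparison (-0.44 points), where the 3 intervals gave 55.6%, 56.0% and 59.7%. Over the 14 chromosomes with at least 30 measured distal probes, the share that fell ranged from 44.9% to 69.2% for males and from 29.2% to 52.3% for females. Chromosome 9 was lowest in both.

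Regions measured by at least 3 probes in both comparisons numbered 191 at the distal ends. Of these 28 (14.7%) fell past 0.67-fold in both, against 14.4% of all 5074 such regions, and 0 rose past 1.5-fold in both, against 0.138%. A further 30 (15.7%) fell in males and rose in females by label, against 15.3%. The 2 comparisons share no array.

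Counted over regions with at least 3 probes measured, 135 of 226 distal regions (59.7%) fell in the male comparison, where 60.9% of all did, and 92 of 267 (34.5%) in the female, where 32.7% did. In females 47 distal regions (17.6%) rose, against 17.1% of all. In males 1 distal region rose, where 0.594% of all did. It was the Zfp651 region, with 1.77-fold in males (5 probes) and 1.41-fold in females (6 probes). Cy5 was well above background at all of its probes on all 4 arrays, but with normexp correction its male log2 fold dropped to 0.051, below the threshold.

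Other highly enriched regions moved in different directions. Ajap1 reached 1.41-fold in males and 1.36-fold in females, and Topaz1 1.23-fold and 1.64-fold, while Grasp had 0.57-fold and 1.28-fold. With the ratios of all arrays set to a common spread, the female log2 folds were -0.45 at Zfp651, -0.54 at Ajap1, -0.64 at Topaz1 and -0.63 at Grasp, so the female direction of these 4 regions turned with the scaling.

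The Mir615 region, at chr15:102844615-102845882, had the largest mean fall. Its place was annotated as promoter where one was given, and not all of its probes carried a symbol. Its folds were 0.22 in the male comparison (3 probes, 2 of them with a dim Cy5) and 0.33 in the female comparison (4 probes, 3 dim). Because the dim signals only bound the fold, the female fall was at least 1.18-fold and the direction of the male value was lost once the dim signals were raised to the lowest signal well above background. Over all 8 measured probes its ratios were -0.46 on Sham male, -0.11 on Sham female, -0.52 on TiO2-H male and -0.70 on TiO2-H female. The TiO2-H values were the 2 lowest, which is no separate result because the region was chosen for falling in both comparisons. Sham male lay close above TiO2-H male.

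The next regions in that order had no symbol. At chr10:127984290-127986390 the folds were 0.44 and 0.24, or at least 1.43-fold and at least 1.32-fold lower as bounds, and the ratios were -0.91, 0.14, -1.14 and -1.24. At chr4:155144111-155144957 the folds were 0.31 and 0.37, from 4 probes all dim in both comparisons. This left a bound of at least 1.44-fold lower in males and none in females. The ratios were 0.77 and 0.47 on the Sham arrays and -0.19 and -0.43 on the TiO2-H arrays. Cy5 was well above background at 0 and 1 of its 8 measured probes on the TiO2-H arrays. These regions were chosen for falling in both comparisons, so lower TiO2-H values are no separate result. Folds were 0.44 and 0.41 at chr16:97984687-97985598, 0.34 and 0.53 at chr15:102347068-102349164, and 0.58 and 0.32 at chr12:117643570-117644365. Each rests on 3 or 4 probes. The ratios over all measured probes were -0.96, -0.43, -0.69 and -0.745 on chromosome 16. They were -0.17, -0.50, -0.81 and -0.45 on chromosome 15, and -0.47, -0.13, -0.12 and -0.012 on chromosome 12. By these ratios TiO2-H was higher on chromosome 12 in both sexes, on chromosome 16 in males and on chromosome 15 in females. For each of the last 3, 1 of the comparisons likewise had no bound that kept its direction.

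In the imprinted domain, Kcnq1ot1 had a fold of 0.92 in the male comparison and of 0.90 in the female one, short of either threshold. Cdkn1c had 0.71 and 1.53, and Igf2 had 0.74 and 0.73. Ascl2 was at least 1.66-fold lower at the 6 probes of the male comparison but had a fold of 1.14 in the female one. That bound covers dim Cy5 only. Over all 17 measured probes, Ascl2 was higher on TiO2-H male (-0.18) than on Sham male (-0.52). Its male log2 fold was -0.19 with normexp and -0.21 with loess, short of the threshold. Tssc4 was at 0.56 and 0.42, the second at least 1.93-fold lower. Over the 5 regions, 2 fell and 0 rose in the male comparison, and 1 fell and 1 rose in the female. Among all autosomal regions with at least 3 measured probes, 60.9% fell and 0.594% rose in males, and 32.7% fell and 17.1% rose in females, and the list counts keep the same minimum of 3 probes. In the FGF list 2 of 2 regions fell in males and 1 of 2 in females, but no bound kept the direction of these falls, and with normexp correction the male log2 folds turned to 0.11 at Fgf3 and 0.13 at Fgf4. Of the regions of transcription factors, 3 of 6 fell in the male comparison, and in the female 2 of 8 fell and 1 rose. Of the regions of channel, receptor and synaptic genes, 0 of 4 fell in males and 3 of 6 in females.

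The 2 Sham and 2 TiO2-H arrays were also fitted together with limma, in which both sexes served as samples of an exposure. Of 39861 autosomal probes tested, 37 (0.0928%) had an adjusted p under 0.05, all lower in TiO2-H, and 0 of the 1510 distal probes tested were among them. At an unadjusted p under 0.05 there were 74 distal probes (4.90%), where 5.45% of all probes were. The lowest distal adjusted p was 0.0662 in limma, at chr4:155144347-155144391, with 0.43 and 1.17 on Sham male and Sham female and -3.08 and -1.70 on the TiO2-H arrays in the same order. It lies in the chromosome 4 region described above. Other fits of all 4 arrays called between 0 and 17 distal probes. The 17 came with a common spread, where 493 of all 39861 probes were called.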

How the data were processed

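Genomic DNA of 4 pools was hybridised to 2-colour Agilent CpG island arrays with positions on mm9. Spots were quantified by the authors in Agilent Feature Extraction (version 10.7.3.1, per the file headers). Processed signals, as deposited, are linear intensity values after background subtraction and dye scaling, and the deposited p-value is that of the scanner's error model for 1 spot. The deposited series table held log10 ratios equal to those of the scanner files within 5e-10, and served as an alternative. From these, log2 of processed Cy5 over Cy3 was centred on the autosomal median of each array, without probes that had an outlier flag (0 distal). Region values are medians over probes. The number of arrays limits the precision, and 1 pool per group gives no spread between animals. A dim Cy5 on the lower side was raised to the lowest signal well above background of its array for bounds ("at least"). limma 3.58.1 (R 4.3.3) fitted 2 TiO2-H against 2 Sham arrays over 39861 probes with Benjamini-Hochberg adjustment, after a test on simulated data. Named regions were the 10 highest and 6 lowest by mean ratio, the 6 with the largest mean fall past 0.67-fold in both comparisons, and regions of 5 gene lists. Members, rules and lists were chosen with earlier results of these data known. Gene symbols and their place (promoter, inside, downstream) came from the study's annotation of probe positions, accepted where the accession was found in RefSeq, for 5120 autosomal probes, of which 185 were distal. Alternatives were normexp (offset 50), common spread, quantile and loess scaling, other filters, limits and thresholds, and leaving out arrays or chromosomes. The values of 1 listed region are not reported here.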

Additional observations from a re-analysis of the deposited data

Results flagged for a closer look

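Of the named regions with at least 3 measured probes in both comparisons, 3 passed the fold thresholds one way for males and the other way for females. The difference between the comparisons was not tested, because each rests on 2 arrays. The most enriched region, chr4:153715735-153715986, had a fold of 0.35 for males and 1.68 for females, a difference of 2.27 on the log2 scale. For chr2:180763528-180763869 the folds were 0.37 and 1.60, a difference of 2.11. The Rapgef5 region had 0.60 and 1.75, a difference of 1.55. With the 2 TiO2-H arrays exchanged, folds against Sham male and Sham female were 0.75 and 0.77, 0.86 and 0.81, and 1.01 and 0.93 in the same order of regions. None of these passed a threshold. The X-linked input goes against both TiO2-H sex labels, and the spread of ratios also differed between arrays. The part of either in the opposition was not tested. Regions with only 2 probes in a comparison showed the same pattern at chr6:146582793-146583232 (0.53 and 2.03) and chr1:194680981-194681478 (0.62 and 1.72). In all, 30 distal regions fell in males and rose in females. The median absolute deviation of ratios was 0.59 on the Sham female array and 1.02 on the TiO2-H female array. With a common spread the female values of these 3 regions turned negative, as given below.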

How the results depend on the processing

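As a mean over the arrays, the small difference between distal and other islands stayed below 0 under all settings run. It was -0.17 with a 1 Mb limit, -0.021 with 5 Mb, -0.002 with normexp and -0.08 with Cy5 above background on all arrays. It was -0.05 without the Cy3 filter, -0.029 without chromosome 7 and -0.016 within Cy3 classes. Over regions it was -0.002 ± 0.031 (SD over arrays), as a mean over chromosomes -0.019 ± 0.03 and with loess -0.01 ± 0.015. In these last settings the SD was larger than the size of the mean. The mean over chromosomes was above 0 on TiO2-H male (0.022). The share in the top 10% was 6.76% with 1 Mb, 9.12% with 5 Mb and 9.19% with normexp, and 23.6% lay in the top 25%. Settings for the distance trend were chosen after seeing the data: the last 1 Mb minus 2 to 3 Mb was -0.035 with normexp, -0.014 with Cy5 above background on all arrays and -0.15 with loess. Leaving out each array gave -0.034 to -0.032, 8.27 to 8.64% and -0.34 to -0.28 for these 3 results.

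The distal excess of falls in males was 7.32 points as a mean over chromosomes, which weights ends with few probes equally. In females it was 7.46 points with 1 Mb, -2.52 with normexp, -1.33 with Cy5 above background on all arrays, -1.67 with a common spread and -2.01 with loess. Its direction is therefore not stable, and the causes were not tested. limma called 17 distal probes with a common spread, 5 with quantile scaling, 4 with sex label as a block, and 2 to 18 without an array, which is 2 without TiO2-H male, 5 without TiO2-H female, 13 without Sham female and 18 without Sham male. Of all 39861 probes tested, of which 1510 were distal, 493 were called with a common spread, 228 with quantile scaling and 70 with the block. The distal calls are therefore part of calls made over all autosomal probes. Each fit without an array leaves 1 array of an exposure, so those counts are not read as distal results. No paired analysis was possible by replicate number because each group had 1 array. The pairing by sex label, which is also the slide, is the block given here.

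Named regions were recomputed under settings chosen after seeing the data, and 351 of 368 levels and 293 of 355 folds kept their sign. Those that turned from beyond the spread over arrays or past a fold threshold follow. With normexp the mean ratio turned sign to -0.085 at chr1:194680981-194681478, -0.048 at Ajap1, -0.17 at Kcnq1ot1 and -0.21 at chr15:103144458-103144755. It also turned to 0.13 at the Ski promoter region, -0.067 at the larger Irf2bp2 region and 0.066 at the Hoxc12 promoter region. Log2 folds turned sign in males to 0.096 at chr1:194680981-194681478 and 0.09 at Grasp with loess, and to 0.27 (normexp) and 0.29 (loess) at Tssc4. With normexp, male log2 folds also turned to 0.11 at Fgf3, 0.13 at Fgf4, 0.032 at the larger Irf2bp2 region and 0.1 at chr12:117643570-117644365. In females, in the order normexp, common spread, quantile and loess, they turned to -0.40, -0.85, -0.27 and -0.35 at chr2:180763528-180763869 and to -0.60, -0.995, -0.40 and -0.73 at chr4:153715735-153715986. Female folds also turned to -0.30 at the Ski promoter region with normexp, and to -0.46, -0.003 and -0.059 at Cdkn1c with common spread, quantile and loess. They turned to -0.64 and -0.19 at Topaz1 with common spread and quantile, and to -0.15 at Rapgef5 with common spread. Signal over background limits these values: dim Cy5 gives only bounds.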
